A study of Mus musculus with 12 samples.

Results

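RAW264.7 cells, a mouse macrophage line, were compared after AdipoAI followed by LPS and after DMSO vehicle, to see how far the treated and activated cells stood from baseline and whether their change was the sum of the LPS change and the AdipoAI change. The comparison used the 3 arrays labelled AdipoAI+LPS and the 3 labelled DMSO, 6 of the 12 arrays of the series, and every probe that the scanner software called well above background on 3 or more of the 6. The other 6 arrays, 3 of LPS alone and 3 of AdipoAI alone, supplied the separate changes. In the AdipoAI+LPS group, 24 h of AdipoAI came before 6 h of LPS at 100 ng/ml, the DMSO cells had DMSO for 24 h, the AdipoAI cells had AdipoAI for 24 h, and the LPS cells are labelled with 6 h of LPS. All were of the same cell line with no genetic change named. The dose of AdipoAI was not given in the sources used here, and the labels give no dose of LPS for the LPS cells. The sum of the changes and the comparisons with LPS alone take the LPS dose to be the same. The labels give the DMSO cells no further 6 h of culture and the LPS cells no vehicle before LPS, so that handling and treatment cannot be told apart.

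LPS, the lipopolysaccharide of Gram-negative bacteria, is sensed on macrophages by TLR4 with its co-receptors and switches on NF-κB, mitogen-activated kinases and an interferon response, which reshape the transcriptome within hours. AdipoAI is a small-molecule agonist of the adiponectin receptors, through which the fat-cell hormone adiponectin acts on energy metabolism and restrains inflammatory signalling in macrophages. The array carried probes for mouse lncRNAs and mRNAs, and its unit was the log2 intensity of a probe after quantile normalization over the 12 arrays.

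Of 60694 probes, 32170 passed the filter, 26560 of them on all 6 arrays, and 23904 were above background on none of the 6. Single arrays had between 29298 and 32969 probes above background, and no spot was saturated. Almost every probe carried no name other than its maker's identifier, so counts are of probes, lncRNAs and mRNAs are not separated, and the macrophage identity of the cells was not tested with marker genes. The exceptions were 15 probes with a gene accession and 1827 probes named as lincRNAs. Nothing in the labels says that replicates came from separate cultures, so p-values measure only the spread between these arrays. All DMSO and LPS arrays and AdipoAI replicates 1 and 2 were in the first scan, and AdipoAI replicate 3 and all AdipoAI+LPS arrays were in the second. The comparison with baseline therefore lay between scans, and only AdipoAI replicate 3 linked them. Each array received RNA from a bulk culture, in which fewer cells carrying a transcript and less of it per cell cannot be told apart.

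AdipoAI+LPS cells stood at a distance from baseline close to that of LPS cells and well beyond that of AdipoAI cells. The distance of an array was taken as the root mean square log2 difference from the DMSO mean over the 32170 probes. The 3 AdipoAI+LPS arrays lay at 1.21, 1.12 and 1.09, the 3 LPS arrays at 1.03, 1.09 and 1.06, and the 3 AdipoAI arrays at 0.62, 0.53 and 0.66, while each DMSO array lay 0.38, 0.30 and 0.39 from the mean of the other DMSO arrays. Over these probes every AdipoAI+LPS array was therefore farther from DMSO than the AdipoAI arrays and marginally farther than the LPS arrays. The filter used the DMSO and AdipoAI+LPS arrays, so it could take in probes above background only with AdipoAI+LPS but not those only with LPS. Distances with LPS and with AdipoAI+LPS are therefore not compared on an equal footing, in the test below too. The mean distance was 1.14 ± 0.0589 (SD, n = 3) with AdipoAI+LPS and 1.06 ± 0.0301 (SD, n = 3) with LPS, and the exact two-sided permutation test gave p = 0.1, the smallest that 3 arrays against 3 allow. The AdipoAI+LPS arrays were also the most spread, with a root mean square SD per probe of 0.386 against 0.294 in DMSO and 0.296 in LPS. Between group means, with the error of each group subtracted, AdipoAI+LPS lay 1.06 from DMSO, LPS 1.00 and AdipoAI 0.471, and AdipoAI+LPS lay 0.493 from LPS. AdipoAI replicate 3, of the second scan, lay farthest of the AdipoAI arrays, and the part of the scan in these distances was not tested.

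**Figure D1:**
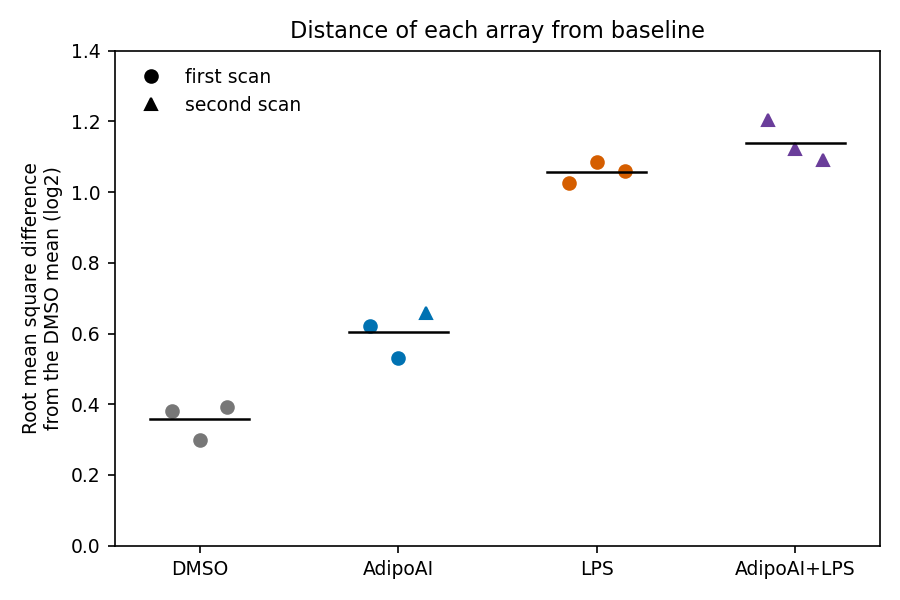
Root mean square log2 difference of each of the 12 arrays from the DMSO mean over 32170 probes (vertical axis) by group (horizontal axis), with circles for the first scan, triangles for the second and lines for the group means. A DMSO array is set against the mean of the other DMSO arrays, and the AdipoAI+LPS arrays lie at 1.09 to 1.21, above all others. The probes were chosen on the DMSO and AdipoAI+LPS arrays alone.

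Probe by probe, the methods' threshold, which asks for an unadjusted p under 0.05 and a log2 change of 1.5 or more in either direction, called 3828 of the 32170 probes (11.9%) in AdipoAI+LPS against DMSO. Of these, 1806 (5.61%) were higher and 2022 (6.29%) lower. Normexp background correction was also applied, to the median spot and background signals and with an offset of 50 added to every reading. The offset shrinks the changes of dim probes, so values with normexp do not show background correction alone. With normexp 1411 probes were called, 893 higher and 518 lower. With the scan as a term of the fit 1946 were higher and 1883 lower, so the larger side turned in both. At an adjusted p under 0.05 (limma, Benjamini-Hochberg over all probes), 15692 probes (48.8%) were called, 6906 (21.5%) higher and 8786 (27.3%) lower, and 7692 were called with the scan as a term of the fit. Against the same DMSO arrays, LPS alone changed 12787 probes (39.7%) by adjusted p and 3084 (9.59%) at the methods' threshold, and AdipoAI alone changed 4976 (15.5%) and 551 (1.71%). The counts share their control arrays and were not tested against each other. They cover probes chosen on the DMSO and AdipoAI+LPS arrays, which leaves out those above background only with LPS or only with AdipoAI. The counts of the single treatments are therefore not on an equal footing with those of AdipoAI+LPS.

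The sizes were skewed. Beyond a 4-fold change, a log2 size over 2, with an adjusted p under 0.05 (limma), 1187 probes were higher and 925 lower with AdipoAI+LPS, although more probes in all had fallen than risen. Among the 26560 probes above background on all 6 arrays, the largest rise was 10.28 on the log2 scale and the largest fall -5.56. The median size of a change was 0.49 for AdipoAI+LPS, 0.41 for LPS and 0.27 for AdipoAI, with a median standard error of 0.182 in each. These medians too are over probes chosen on the DMSO and AdipoAI+LPS arrays. At the other end, the 95% confidence interval of the change lay wholly within 2-fold of DMSO for 16844 probes (52.4%) and within 1.5-fold for 6303 (19.6%). Precision followed the level of the probe, and when the probes were split by mean level into 4 groups of equal size, 34.8% of the dimmest group had an adjusted p under 0.05 (limma) with a median standard error of 0.278, against 55.9% with 0.136 in the brightest group.

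**Figure D2:**
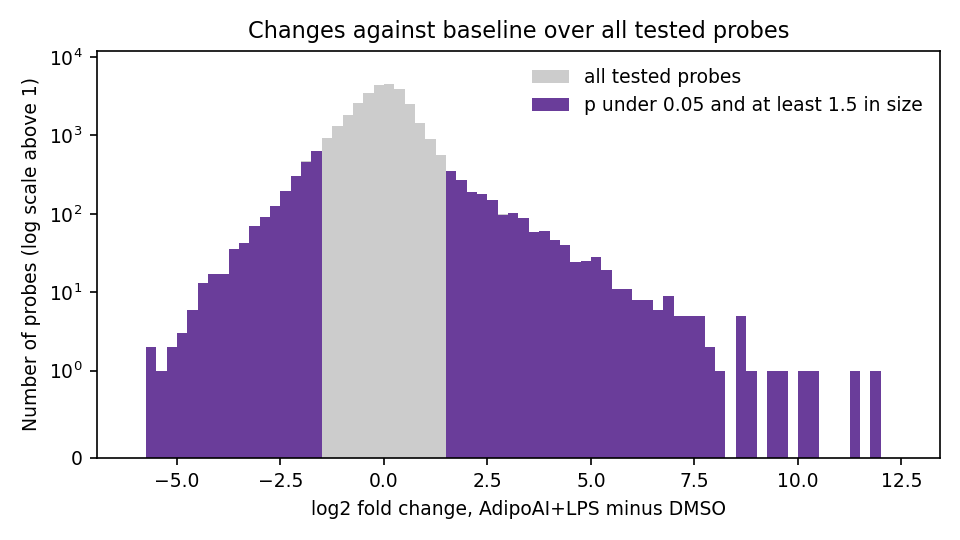
Number of tested probes (vertical axis, log scale above 1) by log2 fold change of AdipoAI+LPS minus DMSO (horizontal axis, bins of 0.25), with all 32170 probes in grey and the 3828 called at the methods' threshold in purple. The right tail, to 11.95, is longer than the left, to -5.58, and both hold fitted values of probes that were in the background in one group.

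Some transcripts crossed the detection limit. There were 466 probes (1.45%) well above background on all 3 AdipoAI+LPS arrays and no DMSO array, and 701 (2.18%) the other way round. Of the 466 that appeared, 249 were also above background on all 3 LPS arrays and 98 on none, 51 were so on all 3 AdipoAI arrays, and 55 were on no array of either single treatment. Of the 701 that disappeared, 388 were above background on no LPS array and 84 still on all 3, while 255 were on all 3 AdipoAI arrays. Since one side is only a bound, a fold is given against the higher of the probe's own reading and the lowest signal called above background on that array. On that scale the 466 rose by a median of at least 2.11-fold, 115 of them by at least 4-fold and 1 by at least 1230-fold, and the 701 fell by a median of at least 1.88-fold, 62 by at least 4-fold and none by more than at least 21.7-fold.

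The 15 probes with a gene accession, each printed in 20 spots, all had a symbol in RefSeq's gene table for GRCm38.p6. Many of them are genes of basic cell upkeep that laboratories use as references. Ldhal6b, a lactate dehydrogenase relative, was not above background on any array and was not tested. Of the other 14, 6 passed an adjusted p under 0.05 (limma) in AdipoAI+LPS against DMSO, against 48.8% of all probes, with 3 higher and 3 lower, and none reached the methods' threshold of 1.5. Tubulins, actins and G6pd2 have close relatives, and the probes' sequences were not analysed here, so the signal of a relative cannot be told apart from theirs.

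Among the metabolic and uptake genes, Gk and Tfrc rose. Gk, glycerol kinase, which passes glycerol into lipid and sugar metabolism, read 5.79, 5.80 and 5.78 on the DMSO arrays and 6.92, 6.80 and 6.68 on the AdipoAI+LPS arrays, on the log2 scale. All AdipoAI+LPS arrays lay above all DMSO arrays, a log2 change of 1.01 (SE 0.121, limma adjusted p = 4.76e-05) or 2.01-fold, and with normexp it was 0.57. LPS alone had moved Gk further, by 1.52, and AdipoAI alone by 0.25 (limma adjusted p = 0.197). Tfrc, the transferrin receptor for iron uptake, read 14.96, 14.63 and 14.73 in DMSO and 15.54, 15.40 and 15.62 in AdipoAI+LPS, again without overlap. Its change of 0.75 (SE 0.117, limma adjusted p = 0.000337) stood beside 0.56 for LPS and 0.74 for AdipoAI, which sum to 1.30, and the interaction was -0.55 (limma adjusted p = 0.127). G6pd2, a relative of the enzyme that opens the pentose phosphate pathway, had a change of -0.27 (95% confidence interval -0.56 to 0.02). Hprt, of purine salvage, had -0.24 (-0.49 to 0.02), and Gapdh, of glycolysis, -0.07 (-0.27 to 0.12).

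B2m, the light chain of MHC class I molecules, also rose. Its arrays read 15.21, 15.37 and 15.46 in DMSO and 15.80, 15.77 and 15.79 in AdipoAI+LPS, so the groups did not overlap. The change was 0.44 (SE 0.114, limma adjusted p = 0.00807), or 1.36-fold, beside 0.51 with LPS and -0.18 with AdipoAI (limma adjusted p = 0.315), and against LPS alone AdipoAI+LPS stood at -0.07 (95% confidence interval -0.32 to 0.18). Its promoter is shown because B2m is the immune gene in the panel and the only one of the 13 panel genes with a RefSeq promoter to hold a match to the NF-κB motif GGGANTTTCC. The window runs from 250 bases before to 50 after the start at chr2:122147437-122147736 on the + strand of GRCm38.p6, and capitals mark the matches, GAAANNGAAA of the interferon-stimulated response element first and the NF-κB motif on the opposite strand second.
B2m: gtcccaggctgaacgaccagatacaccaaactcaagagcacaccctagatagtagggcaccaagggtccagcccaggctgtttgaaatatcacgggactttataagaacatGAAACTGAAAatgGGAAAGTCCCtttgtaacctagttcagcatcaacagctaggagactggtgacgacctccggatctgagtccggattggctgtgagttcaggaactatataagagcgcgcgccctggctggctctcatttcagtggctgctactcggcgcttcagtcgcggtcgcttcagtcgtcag
Searched on both strands, GGGANTTTCC was found in 0.411% of 32851 promoters of that length and GAAANNGAAA in 3.44%. A match of letters is a description and shows no binding.

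Gusb, the lysosomal enzyme beta-glucuronidase, showed the widest gap between the LPS arrays and the AdipoAI+LPS arrays in the panel. It read 14.49, 14.36 and 14.34 in DMSO, 13.56, 13.46 and 13.44 in LPS, 14.72, 14.78 and 14.85 in AdipoAI, and 14.49, 14.63 and 14.65 in AdipoAI+LPS. The LPS arrays lay below all others, and the AdipoAI+LPS arrays lay at or above the highest DMSO array. Against DMSO the change was 0.20 (95% confidence interval -0.02 to 0.41, limma adjusted p = 0.122), where the LPS change of -0.91 and the AdipoAI change of 0.39 sum to -0.52. The interaction was 0.72 (SE 0.139, limma adjusted p = 0.018). It was 0.65 with a limma adjusted p of 0.0966 when the scan was a term of the fit, and it also lost the call without LPS replicate 2 or LPS replicate 3. The Gusb promoter, chr5:130003000-130003299 on the - strand of GRCm38.p6, is given as the partner to B2m because the genes moved apart under LPS, and capitals mark the one match found, the cAMP response element TGACGTCA, present in 1.79% of promoters.
Gusb: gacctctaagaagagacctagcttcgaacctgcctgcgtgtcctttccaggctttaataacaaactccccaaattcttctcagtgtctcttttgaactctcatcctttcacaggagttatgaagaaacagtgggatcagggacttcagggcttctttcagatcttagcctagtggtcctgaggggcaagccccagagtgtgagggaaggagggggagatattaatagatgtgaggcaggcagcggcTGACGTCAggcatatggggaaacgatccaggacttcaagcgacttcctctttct
It held no match to GGGANTTTCC, GAAANNGAAA or the E-box CACGTG, the only other motif searched, in this window. The E-box was found in 7.15% of promoters, and in the panel in those of Gk and Rpl13a. Gk, which LPS raised by 1.52, held no match to GGGANTTTCC. No link between a motif and a change was tested.

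The genes of the cytoskeleton, RNA handling and translation that passed the test were lower. Tuba1b, an alpha-tubulin, read 17.57, 17.54 and 17.53 in DMSO and 17.06, 17.05 and 17.11 in AdipoAI+LPS, a change of -0.47 (SE 0.0855, limma adjusted p = 0.000949). Rpl13a, a protein of the large ribosomal subunit, read 14.90, 14.92 and 14.94 in DMSO and 14.38, 14.32 and 14.46 in AdipoAI+LPS, a change of -0.53 (SE 0.0946, limma adjusted p = 0.000792). Nono, a nuclear RNA-binding protein of paraspeckles, read 12.47, 12.34 and 12.28 in DMSO and 11.89, 11.89 and 11.80 in AdipoAI+LPS, a change of -0.51 (SE 0.11, limma adjusted p = 0.00298). None of the 3 overlapped between groups, but they are described here because they passed the test, so this adds no support. The share of all tested probes without overlap was not counted. The separate changes differed in source, with -0.32 for Tuba1b under LPS and -0.07 under AdipoAI, but -0.19 under LPS and -0.56 under AdipoAI for Nono, and -0.17 and -0.42 for Rpl13a. In each the sum lay within 0.25 of the observed change, with interactions of -0.08, 0.25 and 0.06. Actb, cytoplasmic actin, had a change of 0.29 (95% confidence interval -0.01 to 0.59) and Tbp, the TATA-binding protein, -0.40 (-0.75 to -0.06, limma adjusted p = 0.0544). The chaperone Hsp90ab1 had -0.10 (-0.34 to 0.15), and the prolyl isomerase Ppia -0.10 (-0.29 to 0.09).

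With the scan in the fit, Gk, Tfrc and Rpl13a kept an adjusted p under 0.05 (limma), at 0.0172, 0.0358 and 0.0244. The changes of Tuba1b, Nono and B2m were then -0.46, -0.57 and 0.42, with limma adjusted p of 0.0585, 0.0696 and 0.184.

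**Figure D3:**
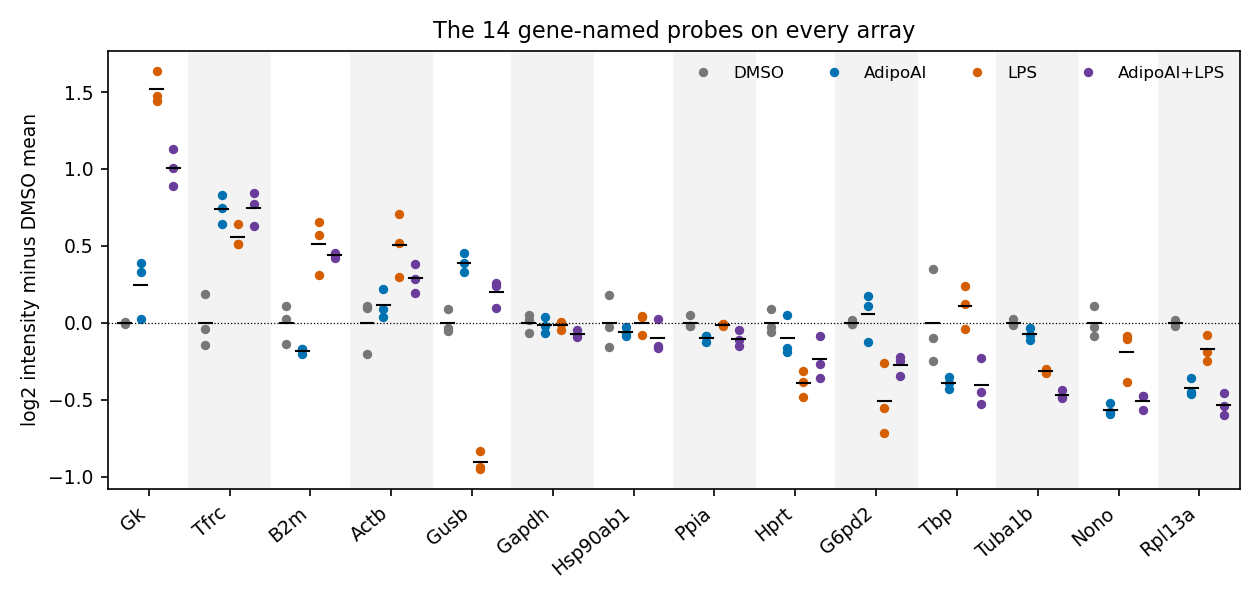
Log2 intensity minus the DMSO mean (vertical axis) of the 14 tested gene-named probes (horizontal axis, ordered by the AdipoAI+LPS change), with a point for each of the 3 arrays of a group and a line for the group mean. Gk leads with a mean of 1.01 in AdipoAI+LPS, and Gusb falls to -0.91 in LPS but stands at 0.20 in AdipoAI+LPS.

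Long intergenic noncoding RNAs are transcribed apart from protein-coding genes, and most are far less abundant than mRNAs. Of the 1827 probes named as lincRNAs, 351 (19.2%) were tested, against 53% of all probes. In AdipoAI+LPS against DMSO, 36 of the 351 (10.3%, against 11.9% of all probes) passed the methods' threshold, 24 higher and 12 lower. By adjusted p under 0.05 (limma), 117 (33.3%, against 48.8%) were called, 90 higher and 27 lower. Over all tested probes the splits were 1806 higher and 2022 lower at the methods' threshold, and 6906 and 8786 by adjusted p. Of the 351, 15 were above background on all AdipoAI+LPS arrays and no DMSO array, and 5 the other way round. Over all 32170 probes these counts were 466 and 701. The filter let such probes in only through the group where they were high, which set their direction. With all 6 arrays above background, 17 of 236 passed the methods' threshold, 12 higher and 5 lower, against 2464 of 26560 probes. The median change of the 351 was 0.29, and that of all tested probes was -0.02. The probes were dim, with a median DMSO level of 4.44 against 6.29 over all tested probes, and with normexp the median change was 0.09. Over all 1827 lincRNA-named probes with no filter, most of them in the background, the median was 0.01. Without AdipoAI+LPS replicate 1 the threshold called 24 (13 higher and 11 lower). Without replicate 2 it called 35 (15 and 20), where the larger side turned, and without replicate 3 26 (15 and 11). The filter still asked for 3 arrays in these fits, so probes above background only on AdipoAI+LPS arrays dropped out. It left 327, 317 and 325 lincRNA-named probes, so the changed balance cannot be read as a difference between arrays alone.

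Of the called lincRNA-named probes, those with the 5 largest rises moved in the LPS arrays too. The probe mouselincRNA1040+_P1 read 4.49, 4.79 and 4.92 in DMSO and 11.56, 10.57 and 8.26 in AdipoAI+LPS, a log2 change of 5.40 (SE 0.811, limma adjusted p = 0.000246), beside 4.62 with LPS and 1.77 with AdipoAI. The AdipoAI+LPS arrays spread over more than 3 log2 units and still lay far above every DMSO array. For humanlincRNA1094-_P1, 6.11, 5.97 and 6.69 in DMSO became 12.54, 10.41 and 10.59, a change of 4.92 (SE 0.522, limma adjusted p = 1.82e-05). For MM9LINCRNAEXON10569-_P1, 7.72, 8.18 and 8.72 became 13.59, 13.12 and 12.39, a change of 4.83 (SE 0.428, limma adjusted p = 4.64e-06). LPS alone moved this last probe by 5.15 and AdipoAI alone by 2.07, which sum to 7.22, and the interaction was -2.39 (limma adjusted p = 0.0645).

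A pair of these probes rose out of the background. In DMSO, humanlincRNA2002+_P1 was on no array above background, and in AdipoAI+LPS it read 8.60, 7.79 and 5.74, at least 17.2-fold higher (limma adjusted p = 0.000404). The probe humanlincRNA1590+_P1 was likewise above background on no DMSO array and on no AdipoAI array, and it read 6.34, 6.55 and 5.75 in AdipoAI+LPS and 6.20, 7.03 and 6.46 in LPS. It was at least 7.69-fold higher with AdipoAI+LPS than with DMSO (limma adjusted p = 1.02e-06), and the AdipoAI+LPS and LPS arrays overlapped. Both probes passed the filter through the AdipoAI+LPS arrays alone, and their p-values rest on background readings in DMSO. With normexp their changes were 1.92 and 1.09.

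Of the 5 falling lincRNA-named probes, 1 stayed above background on every AdipoAI+LPS array, and the other 4 did so on 1 array or none. Neither humanlincRNA1025-_P1 nor humanlincRNA0194-_P1 was above background on an AdipoAI+LPS array. The first was at least 1.91-fold lower from 4.27, 4.35 and 4.08 in DMSO (limma adjusted p = 0.00014), and the second at least 1.7-fold lower from 4.34, 3.97 and 3.89 (limma adjusted p = 0.000448). Both passed the filter through the DMSO arrays alone, their p-values rest on background readings in AdipoAI+LPS, and with normexp their changes were -0.38 and -0.33. On the AdipoAI arrays both were also above background nowhere. For humanlincRNA1945-_P1, which stayed above background on all AdipoAI+LPS arrays, 9.75, 9.49 and 9.34 became 6.03, 8.23 and 7.25, a change of -2.35 (SE 0.428, limma adjusted p = 0.000921). For mouselincRNA0664-_P1, 5.93, 5.58 and 5.51 became 2.60, 4.99 and 2.74, a change of -2.23 (SE 0.512, limma adjusted p = 0.00403) with AdipoAI+LPS above background on 1 array only. For humanlincRNA1543-_P1, the DMSO arrays read 5.30, 5.48 and 5.15, and AdipoAI+LPS replicate 2 read 5.30 while replicates 1 and 3 were in the background. The groups overlapped there, and the change of -2.73 (limma adjusted p = 0.0246) lost its call in 5 of the 12 fits that left out an array and with only the 6 arrays in the fit. The sizes for mouselincRNA0664-_P1 and humanlincRNA1543-_P1 were set by background readings on AdipoAI+LPS arrays, and with normexp they were -0.57 and -0.46, beside -1.88 for humanlincRNA1945-_P1. AdipoAI+LPS replicate 2 read highest of its group for these last 3 probes.

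With the scan in the fit, the calls of mouselincRNA1040+_P1 (limma adjusted p = 0.0563), humanlincRNA2002+_P1 (0.0741), humanlincRNA1945-_P1 (0.0961), mouselincRNA0664-_P1 (0.164) and humanlincRNA1543-_P1 (0.289) were lost, and those of the other 5 named lincRNA probes held.

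**Figure D4:**
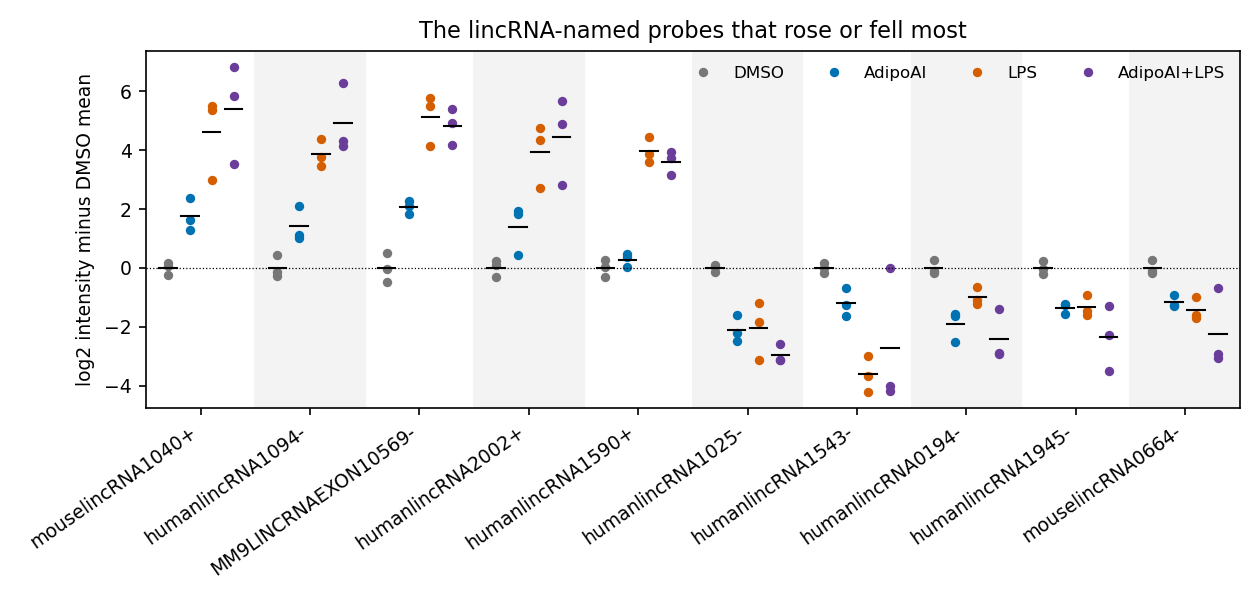
Log2 intensity minus the DMSO mean (vertical axis) for the 5 lincRNA-named probes that rose most and the 5 that fell most (horizontal axis), with a point for each array, 3 a group, and a line for the group mean. Readings of probes in the background are drawn as read and have no order. All AdipoAI+LPS points of the rising probes lie above DMSO, and one point of humanlincRNA1543- lies on the DMSO level.

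To ask whether the combined change was the sum of its parts, the interaction was taken as the AdipoAI+LPS change minus the sum of the LPS and AdipoAI changes, on the log2 scale, where a sum means that folds multiply. The interaction passed an adjusted p under 0.05 (limma) for 1014 of 32170 probes (3.15%), 532 higher than the sum (1.65%) and 482 lower (1.5%), and 4555 had an unadjusted p under 0.05. The count was 1604 with normexp, 646 without DMSO replicate 2 and 651 without LPS replicate 3. Of these, 850, 302 and 339 were higher than the sum, so the larger side turned without DMSO replicate 2. It also turned when the filter asked for any 3 of the 12 arrays (515 of 1039 higher). That filter can take in probes above background only with LPS. For 19599 probes (60.9%) the 95% confidence interval of the interaction lay within 2-fold of the sum, and the estimate itself was within 1.5 times of it for 26727 (83.1%). The median standard error was 0.257, wider than the 0.182 of a single change, because the interaction adds the error of all 4 groups. The root mean square interaction over all probes was 0.506, and 0.364 with the error subtracted.

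Where the interaction passed, AdipoAI+LPS stopped short of the sum more often than it went beyond. Of the 1014 probes, 696 changed in the direction of the sum but less, 171 changed in that direction and more, and 147 lay on the other side of DMSO. The sum and the interaction use the same arrays with opposite sign, so error alone pushes values short of the sum, and of all 32170 tested probes 18394 were short of it, 9449 beyond and 4327 on the other side. Among the 1014, 799 were above background on all 12 arrays, and 853 also differed between AdipoAI+LPS and DMSO by adjusted p (limma).

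The interactions fell into 4 sets by the sign of the sum, and since these values chose the sets they are given as a description. The first held 451 probes lower than a positive sum, with median changes of 2.20 under LPS, 0.53 under AdipoAI and 1.65 under AdipoAI+LPS, where the sum was 2.96. In these probes both single treatments raised the signal at the median, and the combination raised it less than LPS alone. The second held 392 probes higher than a negative sum, at -1.90 under LPS, -0.35 under AdipoAI and -0.98 under AdipoAI+LPS, against a sum of -2.15. The third held 140 probes higher than a positive sum, at 1.52 under LPS, -0.51 under AdipoAI and 2.42 under AdipoAI+LPS, against a sum of 0.94. Here AdipoAI lowered the signal at the median when alone, and the combination was above LPS alone. The fourth held 31 probes lower than a negative sum, at -0.49, -0.33 and -1.92, against -0.66.

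**Figure D5:**
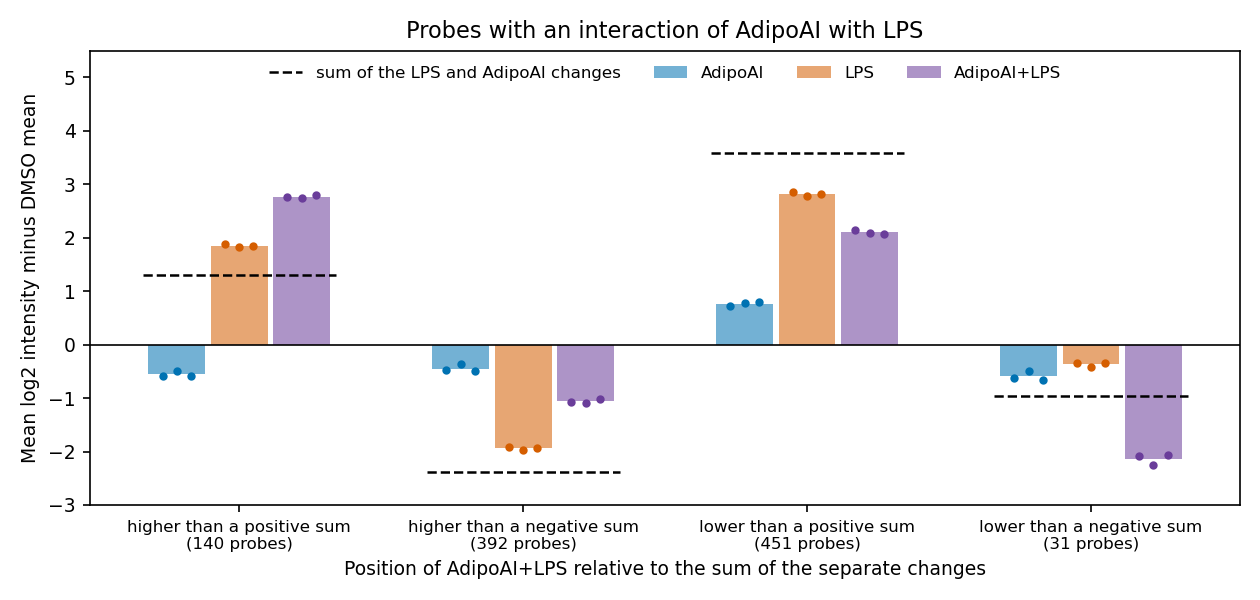
Mean log2 intensity minus the DMSO mean (vertical axis) of the 4 sets of probes with an interaction (horizontal axis), for AdipoAI, LPS and AdipoAI+LPS, with bars for the mean of 3 arrays, points for the arrays and a dashed line at the sum of the LPS and AdipoAI changes. The sets were chosen by these values, and in the largest set, of 451 probes, AdipoAI+LPS stands at 2.1 against a sum of 3.59.

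The scale of the sum mattered for some. When linear intensities were added in place of log2 values, 24882 probes (77.3%) lay within 1.5 times of the sum. Of the 1014 probes, 324 were above and 442 below the sum on both scales, 58 were above the log2 sum and below the linear one, 37 were the reverse, and for 153 the linear sum was not positive and gave no ratio.

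Among the gene-named probes, Gusb and Gk passed for the interaction, against 3.15% of all probes. For Gk the AdipoAI+LPS change of 1.01 stood against a sum of 1.77, an interaction of -0.76 (SE 0.172, limma adjusted p = 0.0405), and the difference from LPS alone was -0.51 (limma adjusted p = 0.0154). The interaction of Gk lost its call in 10 of the 12 fits that left out an array, where it lay between -0.87 and -0.69, and with the scan in the fit (limma adjusted p = 0.0881). Of the 351 lincRNA-named probes, 2 (0.57%) passed, both lower than the sum.

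The probes with the largest values carry only identifiers. Among probes above background on all 6 arrays, ASMM10P049327 rose most. It read 4.14, 4.33 and 3.87 in DMSO, 12.65, 12.21 and 12.28 in LPS, 5.76, 5.73 and 6.25 in AdipoAI, and 14.53, 14.46 and 14.20 in AdipoAI+LPS. The AdipoAI+LPS arrays were the highest without overlap, and the change of 10.28 (SE 0.187, limma adjusted p = 4.85e-11) was close to the sum of 10.07, with an interaction of 0.21 (95% confidence interval -0.37 to 0.80). With normexp, which raises dim readings, the interaction of this probe was 1.34 (limma adjusted p = 0.00139).

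The largest fall, of ASMM10P028071, was also large under AdipoAI alone, at -4.12, and small under LPS alone, at -0.32 (limma adjusted p = 0.0219). It read 9.75, 9.73 and 9.79 in DMSO, 9.35, 9.40 and 9.54 in LPS, 5.71, 5.60 and 5.60 in AdipoAI, and 4.27, 4.21 and 4.10 in AdipoAI+LPS. All AdipoAI+LPS arrays were lower than all AdipoAI arrays, and the change of -5.56 (SE 0.0985, limma adjusted p = 4.31e-11) stood against a sum of -4.45, an interaction of -1.12 (limma adjusted p = 0.00152). With normexp the change was -3.60, and the interaction, at -0.27, was not called (limma adjusted p = 0.145).

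In the probes with the largest interactions among those that rose and those that fell, the LPS rise was smaller or missing with AdipoAI+LPS. The probe ASMM10P042364 read 3.48, 3.90 and 4.37 in DMSO, 12.75, 12.58 and 12.86 in LPS, 5.59, 6.23 and 6.36 in AdipoAI, and 8.98, 8.80 and 9.01 in AdipoAI+LPS. The AdipoAI+LPS arrays lay between the AdipoAI arrays and the LPS arrays, with no overlap, and the change of 5.01 (SE 0.238, limma adjusted p = 4.61e-08) stood against a sum of 10.95, an interaction of -5.94 (SE 0.337, limma adjusted p = 1.91e-05). The probe ASMM10P024510 read 6.86, 7.00 and 7.07 in DMSO, 9.24, 9.15 and 9.29 in LPS, 7.20, 6.73 and 7.11 in AdipoAI, and 6.09, 5.53 and 5.14 in AdipoAI+LPS. LPS raised it by 2.25 and AdipoAI moved it by 0.04 (limma adjusted p = 0.927), yet the AdipoAI+LPS change was -1.39 (SE 0.212, limma adjusted p = 0.000279). Against the sum of 2.29, the interaction was -3.68 (limma adjusted p = 0.000157). With normexp the changes of ASMM10P042364 and ASMM10P024510 were 2.87 and -0.83, and their interactions -4.41 (limma adjusted p = 1.03e-07) and -2.65 (limma adjusted p = 6.8e-06).

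The scan entered these answers unequally. With the scan as a term, the change of AdipoAI+LPS against DMSO rests on AdipoAI replicate 3 against AdipoAI replicates 1 and 2, its median standard error was 0.317, and 7692 probes had an adjusted p under 0.05 (limma) against 15692 without it, 7159 of them in common. Of the 15692, 15553 had the same sign in both fits. The interaction in that fit equals the AdipoAI+LPS minus AdipoAI replicate 3 difference, within the second scan, less the LPS minus DMSO difference, within the first. It was called for 743 probes, 561 of them among the 1014, and each of the 1014 had the same sign. The estimates of the 2 fits share every array but AdipoAI replicates 1 and 2, so the like signs are no independent check. In that fit ASMM10P042364 had an interaction of -6.24 (limma adjusted p = 0.000144), ASMM10P024510 -3.78 (limma adjusted p = 0.00158) and ASMM10P028071 -1.08 (limma adjusted p = 0.0138).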

How the data were processed

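RNA of RAW264.7 cells on 12 single-colour arrays was used, 3 each of DMSO, LPS, AdipoAI and AdipoAI+LPS, grouped by the sample labels. The deposited scanner files give each spot's background-subtracted intensity from Agilent Feature Extraction 11.0.1.1, not normalized between arrays. The authors also deposited a series table of normalized log2 values, used as an alternative (r of 0.9994 to 0.9997 with the values used here).

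Of 62939 spots, 1439 control spots and 300 negative spots were left out, as were 221 probes with an outlier flag; for 15 probes of 20 spots only flagged spots were. Quantile normalization of the log2 intensities took in the 12 arrays. Probes that the software flagged as well above background on 3 or more of the 6 arrays were tested in one limma fit of 4 groups without a block. Calls used the methods' unadjusted p under 0.05 with a log2 fold change of at least 1.5, and adjusted p (Benjamini-Hochberg) under 0.05. The fit was tested on simulated data with 100 changed probes at each size. At a log2 size of 1 it recovered 53% of changes and 30% of interactions, and at a size of 2 it recovered 93% and 82%. False calls were 6 for the change and 4 for the interaction. Promoters came from RefSeq, which held 13 of the 15 genes.

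Named were all accession-named probes, the 5 lincRNA-named probes that rose and the 5 that fell most among those called, and 4 identifiers (largest rise, fall, and interaction among risers and fallers). The members and lists were chosen with earlier results of these data known. Alternatives covered normalization, background correction, the series table, filters, arrays in the fit, variance model, thresholds, replicate and scan blocks, the scale of the sum, and each array left out. Normexp used the median spot and background signals with an offset of 50. Precision is limited by 3 arrays a group. Planned gene lists and cell type markers could not be applied, since no table used here pairs probes with genes. Tests ran in limma 3.58.1 under R 4.3.3, and figures were drawn with matplotlib 3.10.9 under Python 3.11.15.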

Additional observations from a re-analysis of the deposited data

Results flagged for a closer look

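The results given here are those in which the effect of AdipoAI differed between LPS-treated and untreated cells by the interaction term of the limma fit. In all, 1014 probes passed at an adjusted p under 0.05. The interaction of Gk was -0.76 (limma adjusted p = 0.0405) and that of Gusb 0.72 (limma adjusted p = 0.018). Both lost the call with the scan in the fit (limma adjusted p = 0.0881 and 0.0966) and in some fits that left out an array. For the identifier probes the interaction was -1.12 for ASMM10P028071, -5.94 for ASMM10P042364 and -3.68 for ASMM10P024510. That of ASMM10P028071 was not called with normexp (limma adjusted p = 0.145).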

How the results depend on the processing

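No call of a named probe changed sign. With the scan blocked, 15553 of the 15692 changes called by adjusted p (limma) kept theirs. Which side of the calls was larger turned, from 1806 higher and 2022 lower, with normexp (893 and 518) and with the scan blocked (1946 and 1883). The larger side also turned when all 6 arrays had to be above background (1246 and 1218) and without any 1 DMSO array. The lincRNA-named split turned, from 24 and 12, without AdipoAI+LPS replicate 2 (15 and 20). The interaction split, 532 of 1014 higher than the sum, turned in some settings. Among them were the fit without DMSO replicate 2 (302 of 646) and an adjusted p under 0.01 (limma, 216 of 435). It did not turn with normexp (850 of 1604) or with the scan blocked (396 of 743). With normexp, 1411 probes were called against DMSO, 13 of them lincRNA-named, and 1604 had an interaction, 848 of them shared with the 1014, and the distance of group means was 0.7065. Requiring a probe to be above background on all 6 arrays gave 2464 probes and 17 lincRNA-named ones, and no filter gave 59 lincRNA-named ones. A fold change over 1.5 gave 12894 and 106. An adjusted p under 0.01 (limma) left 435 interactions. With the scan as a block, 7692 probes had an adjusted p under 0.05 (limma) and 743 an interaction. With AdipoAI replicate 3 as the sole AdipoAI array, a choice made after seeing the data in which its spread is taken from the other groups, 634 interactions remained, 488 of them shared. Counting passage on 2 of 3 arrays against at most 1 gave 1734 probes out of and 2409 into background. Leaving out 1 array gave 3305 to 3842 calls, 13070 to 15745 by adjusted p, 646 (without DMSO replicate 2; 651 without LPS replicate 3) to 944 interactions, 24 to 36 lincRNA-named calls and a distance of group means of 1.029 (without AdipoAI+LPS replicate 1) to 1.098, from 1.096 with all. The share higher among calls was 54.3% to 55.1% without a DMSO array and 41.7% to 42.5% without an AdipoAI+LPS array, from 47.2%. The filter still asked for 3 arrays in these fits, so probes above background only in the group that lost an array dropped out. Lower calls were then 1510 to 1553 without a DMSO array, and higher calls 1419 to 1592 without an AdipoAI+LPS array. These shares were therefore set in part by the filter. Single-gene calls gained were Tbp with 75th percentile scaling (limma adjusted p = 0.023) and, with normexp, Tbp (0.036), Gusb (0.0376), Hprt (0.0282) and the Tfrc interaction (0.034). The replicate numbers did not pair the arrays (correlations of deviations -0.187, 0.0298 and -0.151). With the replicate block, 3827 probes were called, 15020 by adjusted p, 699 had an interaction, and those of Gk and Gusb were lost (limma adjusted p = 0.0788 and 0.0597). The cause of the other shifts was not tested.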
